A study of Mus musculus with 2 samples.

Results

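The genes of major histocompatibility complex (MHC) class II presentation were followed through the cell classes of mouse skeletal muscle. The 10 genes, of 27998 in the files, were the classical chains H2-Aa, H2-Ab1 and H2-Eb1, the peptide-exchange genes H2-DMa, H2-DMb1 and H2-DMb2, the DM-inhibiting chains H2-Oa and H2-Ob, the invariant chain Cd74 and the transactivator Ciita. They were chosen by name for their role in the pathway, and all 10 were measured. Mononuclear cells of C57BL/6J mice were assayed in 2 droplet single-cell RNA libraries, 1 from the quadriceps of the limb and 1 from the diaphragm, the muscle of breathing. The age of the animals is not given in the sources used here. Each library pooled 5 animals after enzymatic digestion, a density gradient and a scatter-based sort of viable cells. No treatment or genetic change was given. With 1 library per muscle there was no replicate and no test, and muscle, pool of animals and library cannot be told apart.

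Class II molecules are heterodimers that display peptides from the endosomal pathway to CD4 T cells. The newly made alpha and beta chains bind the invariant chain, encoded by Cd74, which blocks the groove and leads the complex to late endosomes. There the invariant chain is cut down to a fragment that H2-DM exchanges for peptide, and H2-O restrains H2-DM. Dendritic cells, macrophages and B cells are the professional presenting cells. Transcription is set by CIITA, which binds no DNA itself and is recruited by the RFX, CREB and NF-Y factors that sit on the conserved X and Y boxes of these promoters. C57BL/6 mice carry a defective H2-Ea gene, so H2-Eb1 is transcribed without a partner chain.

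Of these genes, 8 lie together on chromosome 17 of GRCm38, between positions 34092340 and 34316674, a span of 224 kb. In that order they were H2-Oa, H2-DMa, H2-DMb2, H2-DMb1, H2-Ob, H2-Ab1, H2-Aa and H2-Eb1, and H2-Aa was the only one on the minus strand. H2-Eb1 (ENSMUSG00000060586) was at chr17:34305867-34316674 and H2-DMb1 (ENSMUSG00000079547) at chr17:34153072-34160230, next to H2-DMb2 (ENSMUSG00000037548) at chr17:34143307-34151555. Genes on the opposite strand overlap 4 of the 10: Gm20513 over the start of H2-Eb1, BC051537 over H2-Oa, Brd2 and others over H2-DMa, and Dexi over Ciita. Where they overlap, reads of these pairs can be told apart only if counting used the strand, which is not given in the sources used here. Gm20513 ends at position 34308070, so its overlap does not reach the 3′ end of H2-Eb1. On the same strand, CR974462.3 overlaps H2-DMa and Mir5107 overlaps Cd74, and the strand cannot separate those.

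The stretch before the gene start is shown for 4 genes, because it carries the letters that the shared regulator complex is known to use. Sequences are from RefSeq on GRCm38.p6, 5′ to 3′ on the gene's strand, with matches to AACNNATG (the end of the X box) and GATTGG (the Y box) in capitals.
H2-Eb1, chr17:34305758-34305832, plus strand: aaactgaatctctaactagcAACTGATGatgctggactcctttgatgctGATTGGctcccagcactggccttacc
H2-Ob, chr17:34238800-34238872, plus strand: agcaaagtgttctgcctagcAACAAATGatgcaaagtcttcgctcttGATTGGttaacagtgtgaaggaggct
H2-DMb2, chr17:34145108-34145183, plus strand: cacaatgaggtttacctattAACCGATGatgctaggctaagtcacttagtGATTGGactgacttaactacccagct
H2-Aa, chr17:34287847-34287922, minus strand: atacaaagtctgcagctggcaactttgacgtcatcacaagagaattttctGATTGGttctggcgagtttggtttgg

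Promoters of 7 of the 10 genes were in the RefSeq table. In the 250 bases before the start, an X-box-like match was followed by a Y-box-like match in 4 of these 7: after 21 bases in H2-Eb1, 19 in H2-Ob, and 22 in both H2-DMb1 and H2-DMb2. Of all 32851 promoters in the table, 26 (0.0791%) held such a pair on either strand with a gap of 5 to 30 bases. AACNNATG alone, on either strand, was in 7.71% of promoters and GATTGG in 14.6%. H2-Aa, H2-Oa and H2-DMa held GATTGG without these X-box letters. The motifs were written with the sequences in view, so these shares are a description, and a match is not shown to be a binding site. H2-Ab1, Cd74 and Ciita had no entry in that table. The stretches of H2-Eb1, H2-Ob and H2-Aa lie upstream of the annotated gene, and that of H2-DMb2 lies before the RefSeq start but inside the longer GENCODE gene, in no annotated UTR.

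**Figure D1:**
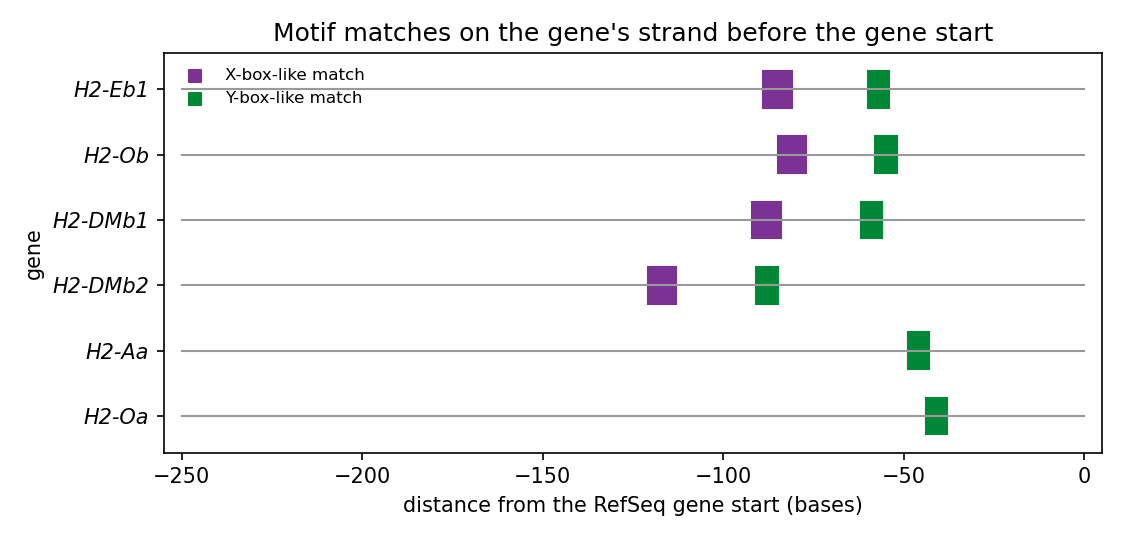
Positions of the X-box-like (purple) and Y-box-like (green) matches on the gene's strand, in bases from the RefSeq gene start (horizontal axis), for 6 class II genes. H2-Eb1, H2-Ob, H2-DMb1 and H2-DMb2 have the pair, with 19 to 22 bases between, and H2-Aa and H2-Oa have the Y-box-like match alone.

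Values are counts of unique molecular identifiers (UMIs), each standing for 1 captured RNA molecule, added up within a class and scaled to CPM, the number in every 1000000 UMIs of that class. UMIs are tags of the 3′ end and are not scaled to gene length. Ranges in parentheses are 95% intervals that cover counting error only. Of 5159 quadriceps and 2499 diaphragm barcodes, 5010 and 2430 had between 1000 UMIs and an upper limit. Classes were called from other marker genes, with no mitochondrial limit, because 85.5% of quadriceps B cells and 91.5% of diaphragm B cells had over 5% mitochondrial UMIs. B cells numbered 214 and 47 in quadriceps and diaphragm, myeloid cells 76 and 11, T cells 116 and 60, NK cells 76 and 6, endothelial cells 57 and 10, and fibro-adipogenic progenitors (FAPs, the mesenchymal progenitors of muscle) 2363 and 2028. The median B cell had 32 and 43 UMIs of B cell markers with a median of 0 or 1 of any other list. The median myeloid cell had 210 and 225 UMIs of myeloid markers with a median of at most 3 of another list. These medians follow from the calling rule and do not test the labels. General leukocyte genes, used for no class, had medians of 14 and 19 UMIs in B cells, 51.5 and 58 in myeloid cells and 0 in FAPs. The libraries shared 5 barcodes, 1 of which fell in a B cell or myeloid class.

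B cells and myeloid cells held nearly all class II RNA. Of the class II UMIs in quadriceps, 49.4% were in B cells and 44.5% in myeloid cells, and in diaphragm 41.6% and 56.4%. The summed level in B cells was 29944 CPM (29532 to 30361) in quadriceps and 28197 CPM (27547 to 28858) in diaphragm, or about 3% of all RNA molecules captured from these cells. In myeloid cells it was 30479 CPM (30037 to 30926) in quadriceps and 63661 CPM (62400 to 64940) in diaphragm. Of the other 4 classes called from immune, vessel and mesenchymal markers, T cells had 65.5 CPM (46.6 to 89.5) and 52.2 CPM (31.0 to 82.6). NK cells had 43.2 CPM (23.0 to 73.9), endothelial cells 34.8 CPM (12.8 to 75.7) and FAPs 26.04 CPM (24.1 to 28.1) in quadriceps, the last falling to 12.2 CPM (10.9 to 13.7) without 1 barcode that also had leukocyte UMIs. In that order, the intervals of T and NK cells overlapped, as did those of NK and endothelial cells and of endothelial cells and FAPs. In diaphragm, FAPs had 11.2 CPM (9.93 to 12.6), and none of 6 NK cells or 10 endothelial cells had a class II UMI, where 3 counts would correspond to 103 and 95.8 CPM.

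**Figure D2:**
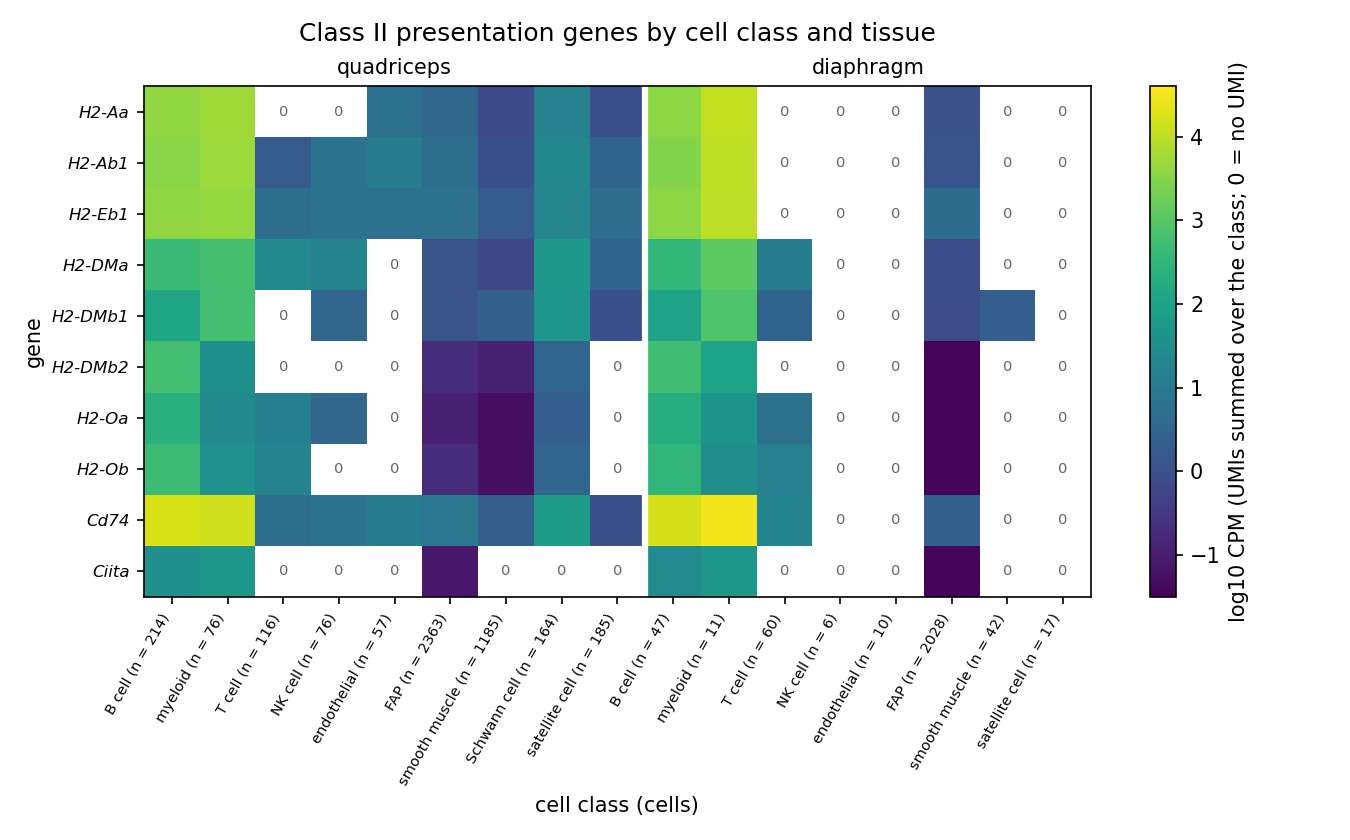
Level of each class II gene (rows) in each cell class of quadriceps and diaphragm (columns, with the number of cells), as log10 CPM in colour, with 0 where the class had no UMI. B cells and myeloid cells of both muscles carry all 10 genes, and Ciita is otherwise seen with 2 UMIs in quadriceps FAPs and 1 in diaphragm FAPs.

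The B cells were even and the myeloid cells were not. Every B cell had a class II UMI, and the class II share of a cell's UMIs ran from 0.199% to 5.19% with a median of 3.06% in quadriceps, and from 1.18% to 8.22% with a median of 3.17% in diaphragm. Myeloid cells ran from 0% to 13.3% (median 0.870%) in quadriceps, with 12 of 76 cells at 0. In diaphragm they ran from 0% to 10.3% (median 7.39%), with 2 of 11 at 0. After thinning each cell to 1000 UMIs, a class II UMI was seen in 214 of 214 and 47 of 47 B cells, in 55 of 76 (72.4%, 60.9 to 82.0) and 9 of 11 myeloid cells, and in 28 of 2363 (1.18%, 0.789 to 1.71) and 19 of 2028 FAPs (0.937%, 0.565 to 1.46). Without thinning, FAPs stood at 11.6% and 12.1%, with median depths of 10516 and 12480 UMIs against 3000 and 4793 in B cells. Smooth muscle cells, which are not professional presenting cells, stood at 0.675% (0.292 to 1.33) after thinning in quadriceps, an interval that overlaps that of the FAPs of the same muscle, and none of 42 had a class II UMI after thinning in diaphragm. Summed without barcodes of 5 or more leukocyte UMIs, quadriceps FAPs had 12.2 CPM (10.9 to 13.7) and smooth muscle cells 7.09 CPM (5.89 to 8.46), which do not overlap. Of the quadriceps smooth muscle cells 99.3% had over 5% mitochondrial UMIs (median 17.1%), against 23.1% of quadriceps FAPs (median 3.93%). What this and free RNA added to these values was not tested.

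Among B cells the classical chains and the invariant chain had the highest counts, and DM, DO and Ciita were low but present. Cd74 (ENSMUSG00000024610, chr18:60803848-60812652) had 11339 UMIs in quadriceps B cells (16864 CPM) and 4130 in diaphragm B cells (16276 CPM). H2-Aa, the alpha chain of the I-A molecule, had 2798 and 942 UMIs (4161 and 3712 CPM). H2-Ab1, its beta chain, had 2163 and 755 UMIs (3217 and 2975 CPM). The log2 ratio of diaphragm over quadriceps was -0.051 for Cd74, -0.16 for H2-Aa and -0.11 for H2-Ab1. H2-Eb1, the beta chain of I-E, had 2545 and 941 UMIs (3785 and 3708 CPM) although its alpha partner is not made in this strain. Ciita (ENSMUSG00000022504, chr16:10480059-10528418) had 25 and 7 UMIs (37.2 and 27.6 CPM).

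Myeloid cells carried the same classical genes, at a higher level in diaphragm. Dendritic cells were 45.5% of the class in diaphragm and 21.1% in quadriceps, and the part of this in the level was not tested. Among dendritic cells alone the log2 ratio of the summed level was 0.43 and among C1q macrophages alone 0.32. Cd74 had 8550 UMIs in quadriceps (14379 CPM) and 4589 in diaphragm (30108 CPM). H2-Aa had 3195 and 1627 UMIs (5373 and 10675 CPM), H2-Ab1 2952 and 1618 (4964 and 10616 CPM), and H2-Eb1 2618 and 1519 (4403 and 9966 CPM). Ciita had 31 and 8 UMIs, at 52.1 and 52.5 CPM, with no difference to be seen between the muscles at this depth.

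The sharpest contrast between the presenting classes was within the DM and DO genes. H2-DMb2, H2-Oa and H2-Ob were higher in B cells and H2-DMb1 was higher in myeloid cells, each past 2-fold and in both muscles. H2-DMb2 had 381 UMIs in quadriceps B cells against 22 in myeloid cells (567 against 37.0 CPM, a log2 ratio of 3.94, 3.32 to 4.63) and 134 against 17 in diaphragm (528 against 112 CPM, log2 2.24, 1.51 to 3.07). H2-DMb1, its neighbour and near copy, went the other way, with 83 UMIs in B cells against 351 in myeloid cells of quadriceps (123 against 590 CPM, log2 -2.26, -2.62 to -1.91) and 26 against 128 in diaphragm (102 against 840 CPM, log2 -3.03, -3.70 to -2.42). H2-DMa, the shared alpha chain, had 458 CPM in B cells against 616 CPM in myeloid cells of quadriceps and 347 against 1214 CPM in diaphragm.

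The choice of beta chain showed cell by cell. Of 214 quadriceps B cells, 138 had more UMIs of H2-DMb2 than of H2-DMb1 and 21 had more of H2-DMb1, while of 76 myeloid cells 2 and 48 did. In diaphragm the counts were 35 and 2 of 47 B cells, and 1 and 8 of 11 myeloid cells. Put as a share, H2-DMb2 made up 82.1% (78.3 to 85.5) of the UMIs of this pair in quadriceps B cells and 83.8% (77.1 to 89.1) in diaphragm B cells, but 5.90% (3.73 to 8.79) and 11.7% (6.98 to 18.1) in myeloid cells. The genes are similar: 27.2% of the 50-base windows of the transcript H2-DMb1-201 also occur in H2-DMb2. In the last 400 bases, near which 3′ tags fall, 7.69% of the windows of H2-DMb1-201 and up to 30.2% of those of its other transcripts were shared, and 0% of those of H2-DMb2-201. How the authors' counting placed reads from shared stretches is not given in the sources used here, so each count is uncertain to that extent.

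The DO chains followed the B cells. H2-Oa had 161 UMIs in quadriceps B cells against 16 in myeloid cells (239 against 26.9 CPM, log2 3.15, 2.41 to 3.99) and 51 against 7 in diaphragm (201 against 45.9 CPM, log2 2.13, 0.98 to 3.51). H2-Ob had 331 against 23 UMIs in quadriceps (492 against 38.7 CPM, log2 3.67, 3.06 to 4.35) and 81 against 5 in diaphragm (319 against 32.8 CPM, log2 3.28, 2.0 to 4.94). Within the myeloid class all 16 H2-Oa UMIs and 22 of 23 H2-Ob UMIs of quadriceps were in dendritic cells. C1q macrophages had 0 of either in both muscles, where 3 counts would be 32.0 and 54.2 CPM. Dendritic cells alone had 83.6 CPM of H2-Oa and 115 CPM of H2-Ob in quadriceps. In diaphragm they had 72.9 and 60.7 CPM, on 6 and 5 UMIs. These levels were below those of B cells but nearer to them than the levels of the whole myeloid class.

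Against the whole transcriptome these counts read as follows. In quadriceps all 10 genes passed the filter of 50 CPM in the higher class and 20 UMIs over both. Of these, 3 were past 2-fold higher in B cells, as were 16% of 3328 genes tested, and 1 was higher in myeloid cells, as were 25.5%. In diaphragm 9 genes passed, all but Ciita, with 3 higher in B cells (15.1% of 2571 genes) and 5 higher in myeloid cells (22.4%). The 5 higher in myeloid cells were H2-DMb1, H2-DMa and the 3 classical chains. Cd74 was past 2-fold in neither muscle, with a log2 ratio of 0.23 (0.19 to 0.27) in quadriceps and -0.89 (-0.95 to -0.83) in diaphragm. Summed over the 10 genes, B cells over myeloid cells gave a log2 ratio of -0.026 (-0.055 to 0.0035) in quadriceps and -1.17 (-1.22 to -1.13) in diaphragm. Against dendritic cells alone the quadriceps value was -0.93 and the diaphragm value -1.45.

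**Figure D3:**
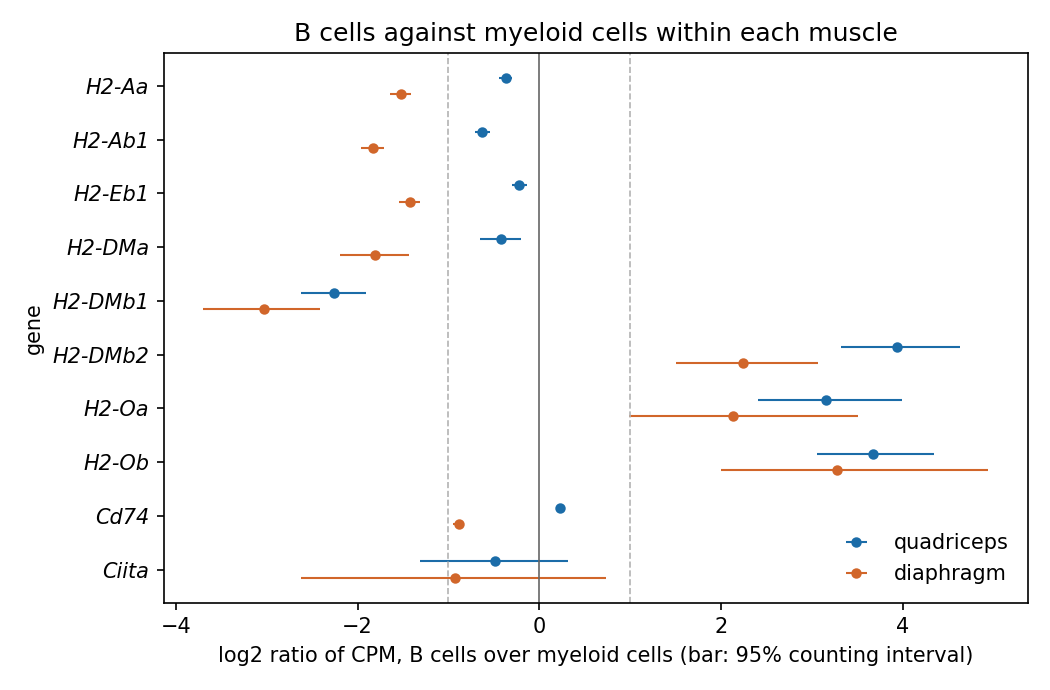
Log2 ratio of CPM in B cells over myeloid cells (horizontal axis) for each class II gene in quadriceps (blue) and diaphragm (orange), with 95% counting intervals and dashed lines at 2-fold. H2-DMb2, H2-Oa and H2-Ob lie to the right and H2-DMb1 to the left in both muscles, while the classical chains lie between 0 and -2.

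Myeloid cells were a mixture, and the class II level differed among its parts. Dendritic cells, called from Flt3, Xcr1, Clec9a, Cd209a and Zbtb46, were highest: 16 quadriceps cells had 57186 CPM and 5 diaphragm cells 76889 CPM. The lowest dendritic cell had a class II share of 2.89% in quadriceps and 7.23% in diaphragm, and the highest 13.3% and 8.12%. C1q macrophages had 34606 CPM in 15 quadriceps cells and 43085 CPM in 3 diaphragm cells, with 2 quadriceps cells at 0. Neutrophils had no class II UMI in 9 quadriceps and 2 diaphragm cells, where 3 counts would be 129 and 583 CPM. A further 36 quadriceps cells and 1 diaphragm cell were not placed. Such cells passed none of these signatures, or passed both the dendritic and the C1q signature, and the kinds were not counted apart. The 36 split widely, with a median share of 0.142%, a highest of 7.86% and 10 cells over 1%. Ciita was seen mainly in dendritic cells, with 22 of its 31 myeloid UMIs in quadriceps and 7 of 8 in diaphragm (115 and 85 CPM).

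**Figure D4:**
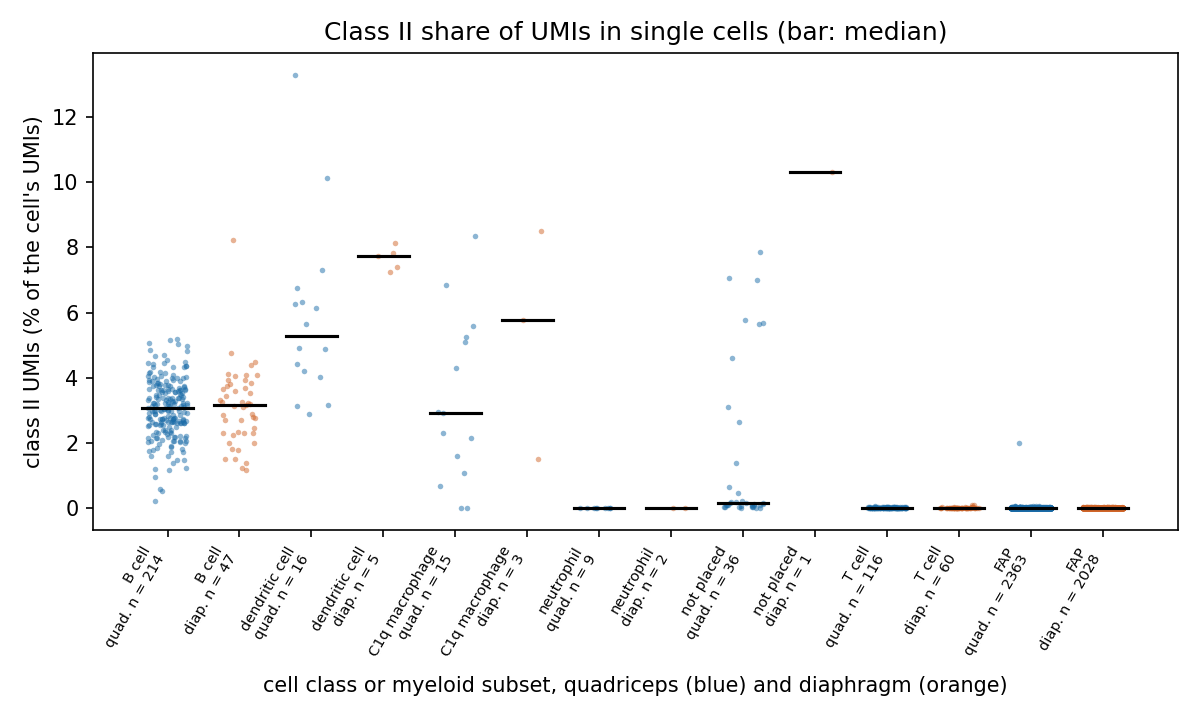
Class II UMIs as a percentage of each cell's UMIs (vertical axis) for B cells, the myeloid subsets, T cells and FAPs of quadriceps (blue) and diaphragm (orange), 1 point per cell with the median as a bar. B cells have medians of 3.06% and 3.17%, dendritic cells lie between 2.89% and 13.3%, neutrophils at 0, and 1 quadriceps FAP barcode stands at 1.98%.

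Between the muscles, class II levels were close in B cells and differed in myeloid cells. The summed level in B cells of diaphragm over quadriceps had a log2 ratio of -0.087 (-0.13 to -0.048). None of the 9 genes that passed the filter was past 2-fold, where of 2770 genes tested 5.7% were past it towards diaphragm and 9.78% towards quadriceps. The widest was H2-Ob at 492 and 319 CPM (log2 -0.62, -0.99 to -0.27), and the median of the 9 was -0.16 beside -0.062 for all genes tested. In myeloid cells the summed level had a log2 ratio of 1.06 (1.03 to 1.10), with 4 of the 8 genes tested past 2-fold higher in diaphragm (11.6% of 3193 genes) and none higher in quadriceps (9.68%). These were H2-Ab1, H2-Eb1, Cd74 and H2-DMb2, the last on 22 and 17 UMIs, while H2-Aa (log2 0.99) and H2-DMa (0.98) fell just short. The make-up of the class also differed between the muscles, and its part in this value was not tested. Besides the share of dendritic cells given above, unplaced cells were 47.4% of the class in quadriceps and 9.09% in diaphragm. The ratios within dendritic cells and within C1q macrophages were not past 2-fold and rested on 5 and 3 diaphragm cells. Dendritic cells had 57186 CPM (56120 to 58267) in quadriceps and 76889 CPM (75006 to 78806) in diaphragm. C1q macrophages had 34606 CPM (33425 to 35817) and 43085 CPM (41373 to 44849). In neither subset did the intervals of the muscles overlap, but these intervals leave out the spread among cells. The class II shares of single cells did overlap between the muscles. Dendritic cells spanned 2.89% to 13.3% (quadriceps, 16 cells) and 7.23% to 8.12% (diaphragm, 5 cells). For C1q macrophages the spans were 0% to 8.35% (quadriceps, 15 cells) and 1.49% to 8.49% (diaphragm, 3 cells). A difference between the muscles within a subset was not tested.

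Outside the presenting cells, class II UMIs were few, but their make-up differed from class to class. In quadriceps B cells Cd74 was 56.3% (55.6 to 57.0) of the class II UMIs and in myeloid cells 47.2% (46.4 to 47.9). In the 39 class II UMIs of quadriceps T cells Cd74 was 3, while H2-DMa was 14, H2-Ob 10 and H2-Oa 8, and H2-Aa, H2-DMb1, H2-DMb2 and Ciita were 0, where 3 counts would be 5.04 CPM. The 14 H2-DMa UMIs came from 13 cells and the 10 H2-Ob UMIs from 10 cells. In diaphragm T cells, on 18 UMIs, H2-Ob was 5, H2-DMa 4 and H2-Oa 2, and Cd74 was 6, of which 4 were in 1 barcode. The 76 quadriceps NK cells had 13 UMIs, 5 of them H2-DMa, and the 57 endothelial cells had 6, of H2-Ab1, Cd74, H2-Aa and H2-Eb1.

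FAPs, the most numerous class, had low counts. Cd74 led in quadriceps FAPs as called, with 218 UMIs against 159 of H2-Eb1, and H2-Eb1 led in diaphragm FAPs, with 118 against 60. In quadriceps 352 of the 663 class II UMIs lay in 1 barcode, which also had 40 UMIs of 6 general leukocyte genes and 11 of myeloid markers, and 158 of the 218 Cd74 UMIs were in it. Leaving it out was chosen after seeing the data. Without it, quadriceps FAPs had 311 UMIs (12.2 CPM, 10.9 to 13.7) and diaphragm FAPs 287 (11.2 CPM, 9.93 to 12.6). The log2 ratio of diaphragm over quadriceps was -1.22 (-1.42 to -1.02) with that barcode and -0.13 without it, so the call past 2-fold rested on 1 barcode. Without it H2-Eb1 had 102 UMIs in 100 cells, or 32.8% (27.6 to 38.3) of the class II UMIs, and Cd74 60, or 19.3% (15.1 to 24.1). In diaphragm H2-Eb1 had 118 UMIs in 111 cells, or 41.1% (35.4 to 47.0), and Cd74 60, or 20.9% (16.3 to 26.1). H2-Eb1 over Cd74 in quadriceps FAPs was 0.729 (0.591 to 0.899) with that barcode and 1.70 (1.22 to 2.38) without it, so its direction turned on 1 barcode. In diaphragm FAPs, where no barcode was left out, it was 1.97 (1.43 to 2.73). The ratio was 0.224 (0.215 to 0.234) and 0.228 (0.212 to 0.245) in B cells and 0.306 (0.293 to 0.320) and 0.331 (0.312 to 0.351) in myeloid cells. Ciita had 2 UMIs in quadriceps FAPs and 1 in diaphragm FAPs, among 25462234 and 25658417 UMIs of all genes. No FAP of diaphragm had more than 4 class II UMIs. All of these are near the level of a single UMI per cell, and the part of the antisense overlap at H2-Eb1 was not tested.

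Schwann cells, the glia of peripheral nerve, had H2-DMa and H2-DMb1 with almost no classical chain or Cd74. Of 230 class II UMIs in 164 quadriceps Schwann cells, 124 were in 1 barcode that also carried 39 UMIs of B cell markers. In the other 163 cells H2-DMa had 51 UMIs in 31 cells (54.2 CPM, 40.4 to 71.3) and H2-DMb1 49 UMIs in 35 cells (52.1 CPM, 38.5 to 68.9). Cd74 had 1 UMI, H2-Ab1 5, and H2-Aa, H2-Eb1, H2-DMb2, H2-Oa, H2-Ob and Ciita had 0, which allows up to 3.42% of the 106 UMIs for each at the upper bound. The diaphragm library had 1 Schwann cell, so this could not be looked at there. Over 5% mitochondrial UMIs were found in 87.8% of the quadriceps Schwann cells and 99.3% of the quadriceps smooth muscle cells. Smooth muscle cells of quadriceps (1185) had 8.91 CPM in all. After 3 barcodes with leukocyte UMIs were left out, 42 of their 123 class II UMIs were H2-DMb1 (34.1%, 25.8 to 43.2), each cell with at most 3 class II UMIs. The corresponding share was 0.412% (0.328 to 0.511) in B cells and 1.94% (1.74 to 2.15) in myeloid cells of the same library.

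**Figure D5:**
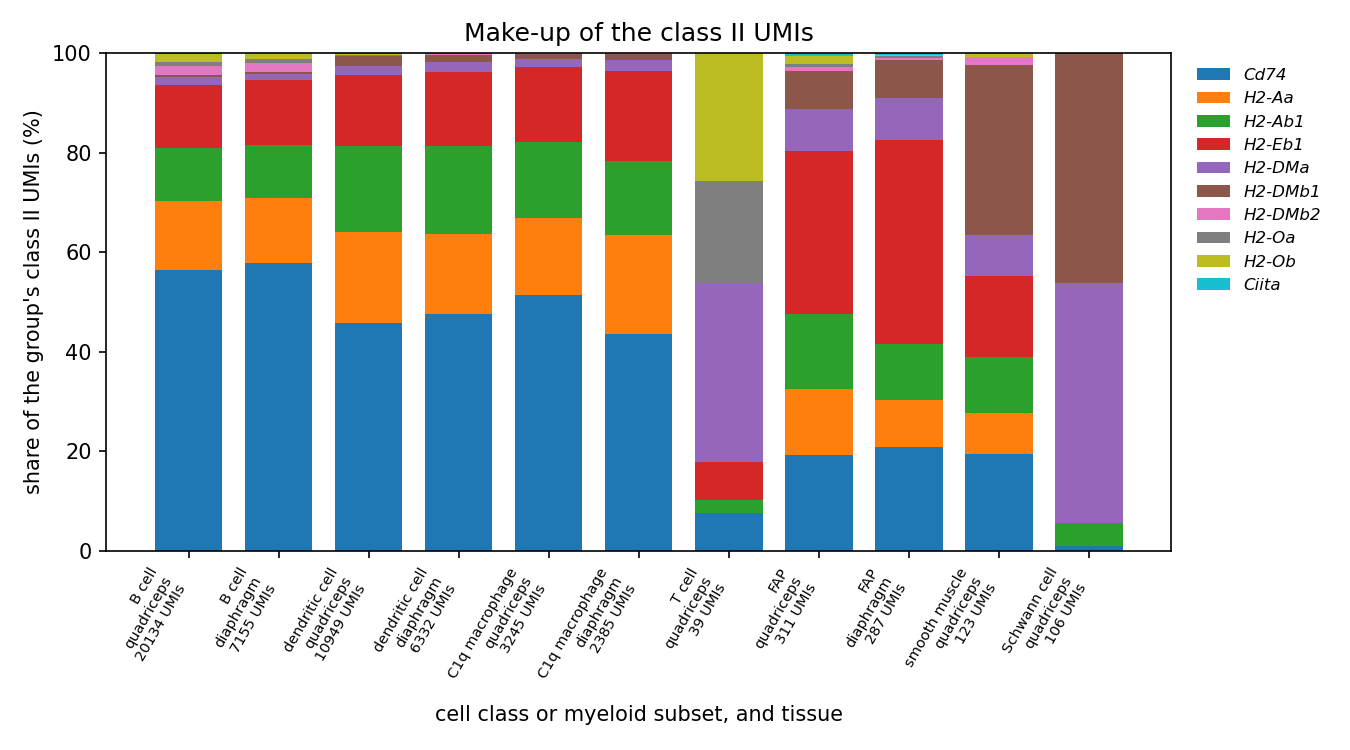
Share of each gene in the class II UMIs of a group (vertical axis, %), by cell class or myeloid subset and muscle, with the group's UMIs under each bar; FAPs, smooth muscle cells and Schwann cells are shown without barcodes that had 5 or more leukocyte UMIs. Cd74 leads in B cells, dendritic cells and macrophages, H2-Eb1 in FAPs, and H2-DMa and H2-DMb1 in Schwann cells, which have 1 Cd74 UMI among 106.

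Other genes of the pathway were taken from a list of 43 measured genes. For each of the 7 RFX, NF-Y and CREB genes on it, the counting intervals of quadriceps B cells and quadriceps FAPs overlapped. Rfx5 was at 7.44 CPM (2.41 to 17.4, on 5 UMIs) in B cells and 7.03 CPM (6.04 to 8.14) in FAPs, Rfxank at 14.9 and 8.13 CPM, Nfya at 23.8 and 18.4 CPM, Nfyc at 22.3 and 23.0 CPM, Rfxap at 32.7 and 27.7 CPM, Nfyb at 40.2 and 34.3 CPM and Creb1 at 58.0 and 47.2 CPM, whereas Ciita was at 37.2 and 0.0785 CPM in the same classes. Spi1, a myeloid and B cell factor, was at 90.7 CPM in B cells, 503 CPM in myeloid cells and 0.118 CPM in FAPs. Among the genes of endosomal processing, 5 of 7 tested in quadriceps and 5 of 6 in diaphragm were past 2-fold higher in myeloid cells than in B cells, beside 25.5% and 22.4% of all genes tested, and none was higher in B cells. Among them Ctsb, a lysosomal protease, had 64.0 CPM in B cells and 678 CPM in myeloid cells of quadriceps. Ctss, the protease that cuts the invariant chain, had 424 and 1431 CPM, and Ifi30, a lysosomal thiol reductase, 290 and 732 CPM. March1, which marks class II for degradation, was higher in B cells in quadriceps (271 against 94.2 CPM) (log2 1.52, 1.08 to 1.98). In diaphragm it had 55.2 against 112 CPM, on 14 and 17 UMIs, with an interval that spans 0 (log2 -1.02, -2.15 to 0.093). In B cells, diaphragm over quadriceps, March1 had a log2 ratio of -2.29 (-3.19 to -1.51). Cd83, also listed under class II turnover, had 1.64 (1.36 to 1.91). Of the 25 listed genes tested there, 1 was past 2-fold higher in diaphragm and 4 in quadriceps, beside 5.7% and 9.78% of all genes. In myeloid cells the ratio of Cd83 was 2.47 (2.07 to 2.88).

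Class I genes were seen in every class compared here. None of the 8 class I genes tested was past 2-fold between B cells and myeloid cells in either muscle, where 41.5% of all genes tested in quadriceps and 37.5% in diaphragm were past it in one direction or the other. B2m, the class I light chain, was at 1444 CPM in B cells and 1847 CPM in myeloid cells of quadriceps. B2m was at 1839 CPM in T cells, 656 CPM in FAPs, 510 CPM in Schwann cells and 75.2 CPM in smooth muscle cells, and H2-D1, a class I heavy chain, at 1840, 864, 229 and 97.9 CPM. H2-Eb2, the remaining measured class II locus, had 26 UMIs in quadriceps B cells and 6 in diaphragm B cells and 0 in the myeloid cells of both. Nlrc5, the CIITA relative that acts on class I genes, had 25.2 CPM in quadriceps T cells, 7.44 CPM in B cells and 13.5 CPM in myeloid cells.

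The genes whose levels followed the summed class II level most closely over 14 groups of class and muscle with at least 20 cells were Wdfy4, Btk, Ly86, Rnase6, Gm6377, Bcl11a, Cd180, Spi1, Rab39 and Themis2, with Pearson's r from 0.942 to 0.962 on log2(CPM + 1). These groups share 2 libraries and differ in depth, and most of the pattern is the step from B cells and myeloid cells to all others. Wdfy4 was at 65.4 CPM in quadriceps B cells, 72.3 CPM in quadriceps myeloid cells and 90.6 CPM in diaphragm B cells, and had 0 UMIs in T and NK cells of quadriceps. Btk, a kinase of B cell receptor signalling also made by myeloid cells, was at 75.8, 52.1 and 47.3 CPM in the same groups. Within cells of 1 class, the class II shares of Cd74 and H2-Ab1 were correlated at r = 0.470 over 214 B cells and r = 0.916 over 76 myeloid cells of quadriceps, as a description of cells that share a library and a denominator.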

How the data were processed

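Per the labels, the mononuclear cells of 2 muscles were profiled by droplet single-cell RNA-seq (3′ tags). The deposited values were raw UMI counts per gene and barcode that the authors made with Cell Ranger 3.0.0 on GRCm38 (mm10); processing notes also name Seurat, and normalised values were not used here. Quadriceps held 50854519 and diaphragm 28545242 UMIs. Barcodes were kept from 1000 UMIs up to a limit set per library at 3 scaled median absolute deviations above the log10 median (65492 and 31728 UMIs).

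A barcode was assigned to a class when at least 3 markers of a list had a UMI and their sum reached a threshold (5 UMIs for B, myeloid, T, NK, endothelial and satellite cells, 10 for Schwann cells, 20 for tenocytes, 50 for smooth muscle, 100 for FAPs); it was set aside when a second list reached 0.25 of the first in units of its threshold. No class II gene was a marker. Called barcodes with less than 2 times the threshold numbered 1 and 0 B cells in quadriceps and diaphragm, 1 and 0 myeloid cells, 10 and 10 T cells, and 225 and 95 FAPs. Myeloid subsets were set by C1q genes (5 UMIs), 5 dendritic markers (2 seen) and S100a8 with S100a9 (5 UMIs). A cell that passed both the C1q and the dendritic rule was not placed. Itgam and Trac of the lists and H2-Ea-ps were not used here. Doublets were handled only by setting such barcodes aside, and Scrublet was run as an alternative.

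UMIs were summed per class and given as CPM with exact Poisson intervals; ratios had exact conditional binomial intervals and shares exact Clopper-Pearson intervals, all at 95% and for counting error only. A count of 0 was read as an upper limit of 3 counts. Genes were called past 2-fold on log2(CPM + 1) among those with at least 50 CPM in the higher group and 20 UMIs over both. Cells are not replicates, so no p-value was computed. On counts drawn from the means of the called classes, 99.6% of 900 simulated barcodes regained their class over 27998 genes. These draws held no doublets and no spread among cells of a class, so the share does not test the calls on real cells. The interval held the true ratio for 96% of 200 changed genes in simulated B cells. Genes named were the 10 members, the pathway list, and the 10 other genes most like the summed level, leaving out class markers; Schwann cell and smooth muscle values, single barcodes and the pathway genes given with values were chosen after seeing them. The members and lists were chosen with earlier results of these data known. Positions are from GENCODE M21. Python 3.11.15, scipy 1.17.1 and scanpy 1.11.5 (Scrublet, Leiden) were used.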

Additional observations from a re-analysis of the deposited data

Results flagged for a closer look

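Class II UMIs were also present in barcodes that entered no class. Barcodes set aside for passing a second marker list held 1180 class II UMIs in quadriceps, 1104 of them in 13 barcodes that passed a B cell or myeloid list together with another, and 11 in diaphragm. Barcodes that passed no list held 184 in quadriceps, of which 65 were in 1 barcode with 4 UMIs of myeloid markers and 27 of H2-Ab1, and 32 in diaphragm. Barcodes outside the UMI limits held 186 in quadriceps, with 136 in 7 B cell barcodes of low depth, and 218 in diaphragm, with 143 in 3 B cell barcodes. Each number is above 3 counts, but that limit is for a count of 0 and sets no threshold for such sums.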

How the results depend on the processing

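No paired analysis was possible because each muscle had 1 library. Depth limits the values of small classes, and 11 diaphragm myeloid cells set that column. Values are log2 ratios, diaphragm over quadriceps unless B cells over myeloid cells is named; the causes of these shifts were not tested. With a 5% mitochondrial limit B cells stood at -0.30, myeloid cells at 1.18 and FAPs at -0.099, and B cells over myeloid cells at 0.088 in quadriceps and -1.39 in diaphragm. Laxer marker thresholds gave 0.98 in myeloid cells, just under 2-fold, -0.089 in FAPs, and -1.07 for B cells over myeloid cells in diaphragm. Keeping barcodes with 2 lists gave 0.0085 in B cells, 1.11 in myeloid cells, -1.48 in FAPs, and -0.073 for B cells over myeloid cells in quadriceps. Means over cells gave 0.028 in B cells, 1.18 in myeloid cells, -0.95 in FAPs, and 0.24 and -0.91 for B cells over myeloid cells. Thinning to 1000 UMIs gave 0.018 in B cells, 1.12 in myeloid cells, 1.54 in T cells, and 0.22 and -0.88 for B cells over myeloid cells. Leiden clusters gave 0.59 in B cells, where the diaphragm cluster also took in its 11 myeloid cells so that no myeloid value could be had there, and -0.17 in FAPs. Removing Scrublet calls (93 and 3 barcodes, 0.120% in diaphragm, too few for the caller to have worked there) gave -0.13 in FAPs. Among alternatives added after seeing the data, leaving out FAPs with 5 leukocyte UMIs gave -0.13. Dendritic cells alone gave 0.43, and C1q macrophages alone 0.32, in place of all myeloid cells. For B cells over myeloid cells the values in quadriceps and diaphragm were -0.93 and -1.45 with dendritic cells, -0.21 and -0.61 with C1q macrophages, and -0.083 and -1.22 without neutrophils. The T cell ratio, whose interval spans 0, changed sign with the mitochondrial limit (0.21) and the stricter thresholds (0.14). The stricter thresholds, a doubled lower UMI limit, no upper limit, a second list at 0.1 and leaving out shared barcodes kept every such ratio within its counting interval. Genes past 2-fold between muscles numbered 429 of 2770 in B cells, 176 of 1327 at 100 CPM and 843 of 4729 without a CPM filter; in myeloid cells they numbered 680, 307 and 963. Over 14 alternatives the ratio of H2-DMb1 between muscles in B cells, on 26 diaphragm UMIs, ran from -1.88 to 1.72.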
